A study of Mus musculus with 6 samples.

Results

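The genes described here are Gdap1 and 9 genes of the machinery that joins and divides mitochondria, namely Mfn1, Mfn2, Opa1, Oma1, Dnm1l, Fis1, Mff, Mief1 and Mief2. They were chosen by name, as 10 of the 55401 genes in the count table. Gdap1 was picked because it was lower with RBM20 in these same libraries, so its difference is described here with no test. The other 9 were taken for their known roles, and they were tested. All 10 passed the low-count filter, which kept 17222 genes.

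Mitochondria in muscle fibres lie between the myofibrils and beneath the sarcolemma, and they change shape by fusing and dividing. Mitofusins join the outer membranes and OPA1 joins the inner membranes, while the dynamin-related protein encoded by Dnm1l is recruited from the cytosol by outer membrane receptors and constricts the organelle. GDAP1 is an outer membrane protein related to the glutathione transferases. Extra GDAP1 fragments mitochondria, and mutations in the human gene cause forms of Charcot-Marie-Tooth disease, a hereditary peripheral neuropathy.

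RNA was sequenced from the tibialis anterior (TA) muscle of C57BL/6 mice, male per the study's methods, labelled HSA-MCM-Bmal1-/-, in which a tamoxifen-inducible Cre driven by a skeletal muscle promoter deletes the clock gene Bmal1. This deletion was shared by both groups, which differed in the adeno-associated virus (AAV) injected into the muscle, AAV-GFP (n = 3) or AAV-RBM20 (n = 3). The AAV-RBM20 vector carried a tagged mouse Rbm20 cDNA under a CMV promoter and was injected at the higher dose, so dose and transgene cannot be told apart. Tamoxifen was given at 2 mg per day for 5 days, starting at 12 to 16 weeks of age in mice kept under 12 h of light and 12 h of dark. The virus followed 4 weeks later, and muscle was taken 4 weeks after the virus, 8 weeks after tamoxifen. The Cre line acts in muscle fibres, so the other cells of the muscle keep Bmal1. Uninjected mice and mice with intact Bmal1 were not analysed here. The study sequenced these muscles to examine titin splicing, which RBM20 regulates, and only gene-level counts are compared here.

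Rbm20 was measured at 170, 165 and 164 CPM (counts relative to library size) in AAV-GFP replicates 1, 2 and 3, and at 499, 545 and 406 CPM in AAV-RBM20 replicates 1, 2 and 3. The fitted log2 fold change of 1.54 ± 0.15 (SE) carried an adjusted p of 0.121 by the quasi-likelihood test of edgeR, and of 0.0107 once the replicate number was a block. Arntl, the gene symbol of Bmal1, averaged 35.0 ± 3.63 CPM in the AAV-GFP libraries against 26.3 ± 1.63 CPM in the AAV-RBM20 libraries (SD, n = 3 each). Each AAV-RBM20 library was below each AAV-GFP library for Arntl, a pattern that 9.04% of all genes showed. Its log2 fold change of -0.41 ± 0.13 (SE) had an adjusted p of 0.618 in edgeR and 0.109 with the replicate block. The cause of this difference was not tested. Libraries held 41400132 to 54226618 counts. The libraries numbered 3 stood apart in both groups, with 4.48% and 9.05% of counts on Ttn where the other 4 had 16.9% to 17.8%, and 11.4% to 12.5% on mitochondrially encoded genes where the others had 6.41% to 7.66%. No gene among all 17222 passed an adjusted p of 0.05 in edgeR, while 1360 had an unadjusted p under 0.05, DESeq2 called 75 and limma-voom called 0. The labels do not say whether the samples came from separate animals, so p-values measure only the spread between these samples. In the study's lane list for the blots of this experiment, some numbers appear under both vectors, L with Rbm20 and R with GFP. That list does not name these libraries, so whether any of them share an animal cannot be read from it.

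Gdap1 (ENSMUSG00000025777) lies on the plus strand of chromosome 1 from 17145362 to 17164271 in GRCm38, and no other annotated gene overlaps it. In AAV-GFP replicates 1, 2 and 3 it had 986, 1333 and 1827 counts, or 24.3, 31.9 and 34.7 CPM. In AAV-RBM20 replicates 1, 2 and 3 it had 589, 420 and 708 counts, or 10.8, 10.4 and 14.6 CPM. Each AAV-RBM20 library lay below each AAV-GFP library, and the highest of the former was AAV-RBM20 replicate 3. The group means were 30.3 ± 5.42 and 11.9 ± 2.29 CPM (SD, n = 3 each), which put AAV-GFP 2.54-fold higher, and the fitted log2 fold change of -1.34 ± 0.19 (SE) was the 28th lowest among the genes tested. The gene was lower with RBM20 in all 3 same-numbered pairs. These numbers, and each value with a replicate block, come from the sample titles, since the descriptions and the columns of the tables number the AAV-RBM20 samples 4 to 6. Across all genes, 9.04% had lower, non-overlapping ranges with RBM20, and 23% were lower in all 3 pairs. These Gdap1 values are the ones it was chosen for, and nothing is read from its place among them. Without the libraries numbered 3 its log2 fold change was -1.40, and leaving out any 1 library gave -1.50 to -1.24.

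**Figure D1:**
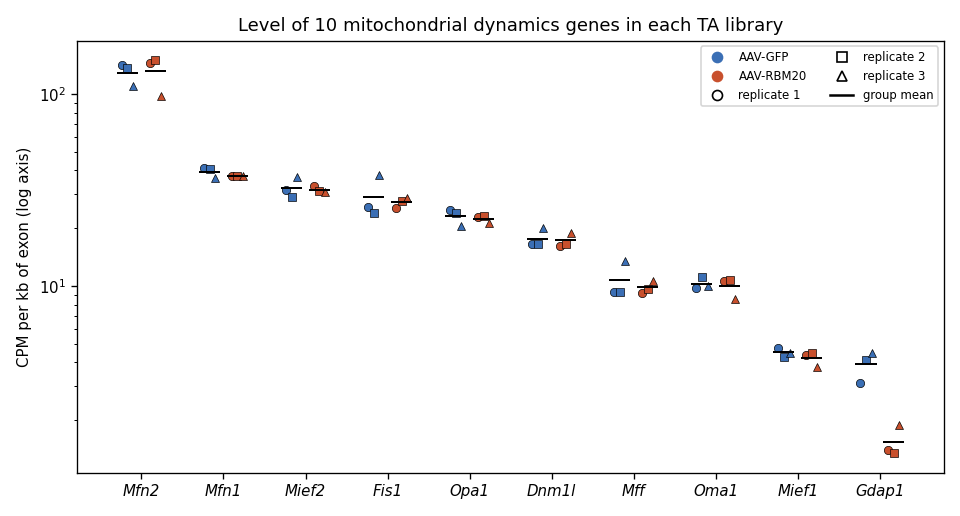
Level of each of the 10 genes in the 6 libraries, in CPM per kb of exon on a log axis, with AAV-GFP in blue, AAV-RBM20 in red, a marker shape for each replicate number and bars at the group means. The Gdap1 points lie between 1.35 and 4.49 with no overlap of the groups, whereas the groups overlap for each of the other 9 genes.

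Among the 9 other genes, 0 passed an adjusted p of 0.05 in edgeR, where the share over all genes was 0%. The count was also 0 of 9 at an unadjusted p under 0.05, where the share over all genes was 7.9%, 0 of 9 in DESeq2 and in limma-voom, which called 0.435% and 0% of all genes, and 0 of 9 at an unadjusted p under 0.05 with the replicate block, where the share over all genes was 18.8%. Group ranges overlapped for each of the 9, against 16.8% of all genes whose ranges did not overlap, of which 9.04% were lower and 7.71% higher with RBM20. None of the 9 was lower in all 3 same-numbered pairs or higher in all 3, where the shares over all genes were 23% and 22.2%. A total of 8 genes had a fitted value below 0 and 1 above, where 48.7% of all genes were below 0. The 9 had a median log2 fold change of -0.05 beside 0.009 for all genes. Their standard errors ran from 0.12 to 0.20, and the lowest and highest ends of their 95% intervals were -0.53 (Fis1) and 0.48 (Mfn2).

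Mfn1 and Mfn2 encode the mitofusins, outer membrane GTPases that tether and fuse neighbouring mitochondria. Mfn1 (chromosome 3, 32529465 to 32579239) was at 253, 247 and 223 CPM in the AAV-GFP replicates and at 228, 229.9 and 229.7 CPM in the AAV-RBM20 replicates. The AAV-RBM20 values lay within the range of AAV-GFP and were closer to each other. The log2 fold change of Mfn1 was -0.07 ± 0.12 (SE), with a 95% interval of -0.35 to 0.20 and an adjusted p of 0.868 in edgeR. Mfn2 also bridges mitochondria to the endoplasmic reticulum. Mfn2 (chromosome 4, 147873599 to 147904704) was at 734, 705 and 570.4 CPM in the AAV-GFP replicates and at 756, 779 and 507 CPM in the AAV-RBM20 replicates. In both groups replicate 3 was the lowest, and it lay further from replicates 1 and 2 of its own group than the group means, 670.0 and 680.5 CPM, lay from each other. The log2 fold change of Mfn2 was 0.02 ± 0.20 (SE), with an interval of -0.44 to 0.48 and an adjusted p of 0.980 in edgeR, the widest interval among the 9. The ratio of Mfn2 to Mfn1 per kb of exon was 3.26 ± 0.216 in AAV-GFP and 3.50 ± 0.781 in AAV-RBM20 (SD, n = 3 each).

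Opa1 encodes the dynamin-related GTPase that fuses inner membranes and holds cristae in shape. Opa1 (chromosome 16, 29579334 to 29654884) was at 196, 189 and 161 CPM in the AAV-GFP replicates and at 181, 182 and 168 CPM in the AAV-RBM20 replicates. Here too replicate 3 was the lowest in both groups, and the AAV-RBM20 values lay inside the range of AAV-GFP. The fitted log2 fold change was -0.04 ± 0.13 (SE), with an interval of -0.34 to 0.26 and an adjusted p of 0.938 in edgeR. Oma1 encodes the inner membrane protease that cleaves OPA1 under stress and so stops fusion. Oma1 (chromosome 4, 103313812 to 103371868) was at 20.9, 24.0 and 21.4 CPM in the AAV-GFP replicates and at 22.8, 23.0 and 18.4 CPM in the AAV-RBM20 replicates. The lowest Oma1 value was AAV-RBM20 replicate 3, and the other 5 libraries were interleaved. The fitted log2 fold change was -0.05 ± 0.14 (SE), with an interval of -0.36 to 0.27 and an adjusted p of 0.932 in edgeR. Summed per kb of exon, Mfn1, Mfn2 and Opa1 came to 191.5 ± 21.8 CPM in AAV-GFP and 190.9 ± 30.0 CPM in AAV-RBM20.

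Dnm1l encodes DRP1, the GTPase that assembles around mitochondria and divides them. Dnm1l (chromosome 16, 16312230 to 16358959) was at 85.6, 85.8 and 104 CPM in the AAV-GFP replicates and at 84.3, 86.4 and 98.8 CPM in the AAV-RBM20 replicates. Replicate 3 was the highest in both groups, and replicates 1 and 2 of both groups lay close together. The log2 fold change of Dnm1l was -0.03 ± 0.14 (SE), with an interval of -0.35 to 0.29 and an adjusted p of 0.954 in edgeR. An antisense gene, Gm49521, shares 243 exon bases with Dnm1l. Its 26 counts over the 6 libraries are few beside those of Dnm1l, but the strand setting of the counting was not stated, so reads of the pair cannot be told apart there.

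Mff, Fis1, Mief1 and Mief2 encode outer membrane proteins that receive DRP1. MFF is the main receptor for division in many cells, and FIS1 is a tail-anchored protein also tied to mitophagy. Mff (chromosome 1, 82724890 to 82752394) was at 91.1, 90.8 and 131 CPM in the AAV-GFP replicates and at 89.4, 94.4 and 104 CPM in the AAV-RBM20 replicates. Fis1 (chromosome 5, 136953275 to 136966234) was at 44.1, 41.0 and 64.8 CPM in the AAV-GFP replicates and at 43.5, 47.7 and 49.1 CPM in the AAV-RBM20 replicates. For both genes the single high value was AAV-GFP replicate 3, and the other 5 libraries did not separate by group. The log2 fold change was -0.12 ± 0.17 (SE) for Mff, with an interval of -0.52 to 0.28 and an adjusted p of 0.848 in edgeR. For Fis1 it was -0.10 ± 0.19 (SE), with an interval of -0.53 to 0.33 and an adjusted p of 0.891 in edgeR. Without AAV-GFP replicate 3 the fitted values were 0.07 for Mff and 0.13 for Fis1. The non-coding C430014B12Rik on the opposite strand shares 195 exon bases with Mff and had 53 counts in all, so Mff carries the same uncertainty of strand.

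MIEF1 and MIEF2 bind DRP1 at the outer membrane and can hold it there in an inactive state. Mief1 (chromosome 15, 80234018 to 80253371) was at 38.6, 34.6 and 36.4 CPM in the AAV-GFP replicates and at 35.3, 36.3 and 30.8 CPM in the AAV-RBM20 replicates. Mief2 (chromosome 11, 60728398 to 60732951) was at 85.7, 78.6 and 100.3 CPM in the AAV-GFP replicates and at 90.2, 84.8 and 83.7 CPM in the AAV-RBM20 replicates. The lowest Mief1 value was AAV-RBM20 replicate 3 and the highest Mief2 value was AAV-GFP replicate 3, and the ranges of the groups overlapped for both. The log2 fold change was -0.10 ± 0.12 (SE) for Mief1, with an interval of -0.38 to 0.18 and an adjusted p of 0.823 in edgeR. For Mief2 it was -0.03 ± 0.13 (SE), with an interval of -0.34 to 0.28 and an adjusted p of 0.953 in edgeR. The annotated protein-coding AC140267.1 shares 213 exon bases with Mief1 on the same strand and had 0 counts. Summed per kb of exon, the 4 receptors came to 76.8 ± 13.9 CPM in AAV-GFP and 73.1 ± 0.900 CPM in AAV-RBM20.

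**Figure D2:**
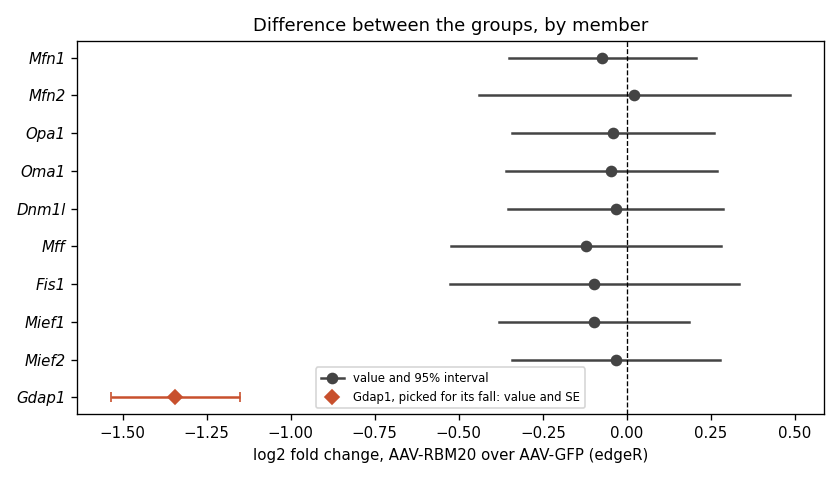
Log2 fold change of AAV-RBM20 over AAV-GFP for the 10 genes from the edgeR fit, with 95% intervals for the 9 that were tested. Gdap1 stands at -1.34 with a bar for its SE and no 95% interval, since it was chosen on this difference. The intervals of the other 9 all include 0.

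Levels of the 10 genes were ordered by CPM per kb of exon, averaged over the 6 libraries, since reads per gene also grow with its length. Mfn2 was the most abundant at 130.0 ± 21.3 (SD, n = 6), and its range did not meet that of Mfn1 at 38.5 ± 1.99. Mief2 at 32.1 ± 2.74, Fis1 at 28.2 ± 4.98 and Opa1 at 22.8 ± 1.66 followed, and from Mfn1 to Opa1 each gene overlapped the next in range. Dnm1l at 17.5 ± 1.64 was clear of Opa1 above it and of Mff below it, at 10.3 ± 1.64. Mff overlapped Oma1 at 10.1 ± 0.924, and Oma1 did not overlap Mief1 at 4.36 ± 0.324. Gdap1 was the least abundant at 2.73 ± 1.39, and its range of 1.35 to 4.49 reached into that of Mief1, 3.80 to 4.77, only through its AAV-GFP libraries. Its highest library was 3.32 times its lowest. With the length of the longest coding transcript in place of all annotated exons, a scale chosen after seeing the data, Mfn2 and Mfn1 stayed at the top and Oma1, Mief1 and Gdap1 at the bottom, while Fis1 moved to rank 3 and Mff to rank 4.

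As a share of the summed CPM per kb of the 10 genes, Gdap1 made up 1.02%, 1.38% and 1.53% in the AAV-GFP replicates and 0.456%, 0.433% and 0.726% in the AAV-RBM20 replicates. The means were 1.31% ± 0.263 and 0.538% ± 0.163 (SD, n = 3 each). Mfn2 made up 42.9% ± 4.79 and 44.4% ± 5.90 on the same scale. The level of Mfn2 per kb was 34.1 ± 10.3 times that of Gdap1 in AAV-GFP and 89.0 ± 32.4 times in AAV-RBM20. The share of Gdap1 follows from the same counts as its fold change and is no separate evidence of it.

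The libraries numbered 3 differed from replicates 1 and 2 of their own groups at several of the 10 genes, by the difference of their log2 CPM from the mean of the other 2. Mfn2 was lower in replicate 3, by -0.34 in AAV-GFP and -0.60 in AAV-RBM20, and Opa1 was lower by -0.26 and -0.11. Dnm1l was higher by 0.28 and 0.21, Mff by 0.53 and 0.18, and Fis1 by 0.61 and 0.11. Gdap1 was higher in replicate 3 of both groups as well, by 0.32 in AAV-GFP and 0.46 in AAV-RBM20. Over all genes the median of this difference was 0.04 in AAV-GFP and 0.008 in AAV-RBM20. The differences of Mfn1 and Mief2 had opposite signs in the groups, and those of Oma1 and Mief1 were below 0 in both. These are single libraries, so the differences carry no test. The share of counts on Ttn and on mitochondrially encoded genes moved with the same libraries, and its part in these values was not tested.

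**Figure D3:**
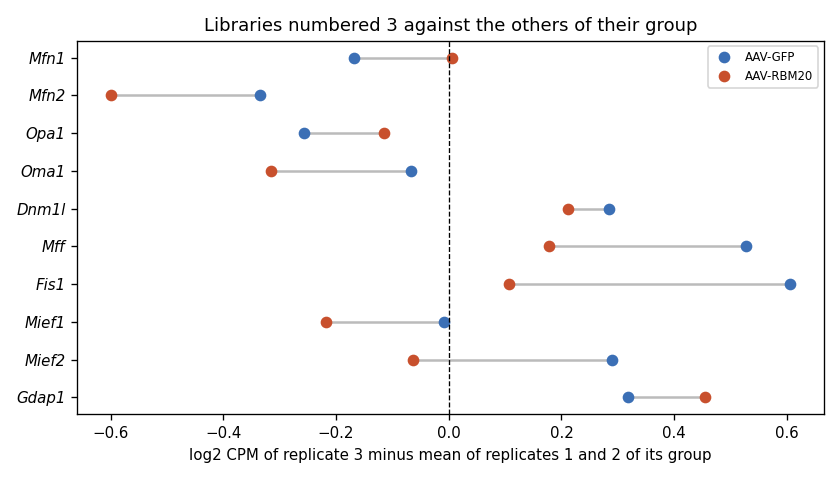
Difference in log2 CPM between replicate 3 and the mean of replicates 1 and 2, in AAV-GFP and in AAV-RBM20, for each of the 10 genes. Mfn2 and Opa1 lie below 0 and Dnm1l, Mff, Fis1 and Gdap1 above 0 in both groups.

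To find the genes whose levels ran most like those of Gdap1, log2 CPM was centred on each gene's mean and the root mean square difference from Gdap1 was taken over the 6 libraries, for 11652 genes. Kazald1 was the nearest at 0.24, with 3.05, 4.00 and 5.28 CPM in the AAV-GFP replicates and 1.92, 1.42 and 2.82 CPM in the AAV-RBM20 replicates. Tdrkh followed at 0.26, with 7.80, 8.98 and 8.53 CPM against 3.78, 4.53 and 4.72 CPM. Tceal5 and Gm13339 were each at 0.28, as was 0610040J01Rik. The log2 fold changes of these 5 genes ran from -1.12 for Gm13339 to -0.81 for 0610040J01Rik, which the choice by likeness to Gdap1 fixes in direction. For scale, the root mean square of Gdap1 around its own mean was 0.70. Among the 9 other genes of mitochondrial fusion and fission, the nearest was Mff at 0.64, which ranked 3355 of the 11652.

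Nearest to Gdap1 on the chromosome among the genes tested lay Gm28783, at a distance of 16406 bp, and Jph1, at 47473 bp. Jph1 encodes a junctophilin that holds the sarcoplasmic reticulum against the T-tubules, and it lies on the minus strand from 16964560 to 17097889. Jph1 was at 630.5, 619.5 and 729.8 CPM in the AAV-GFP replicates and at 474, 503 and 501 CPM in the AAV-RBM20 replicates. Each AAV-RBM20 library was below each AAV-GFP library, a pattern that 9.04% of all genes showed. Its log2 fold change of -0.42 ± 0.13 (SE) had an adjusted p of 0.618 in edgeR and 0.133 with the replicate block, and DESeq2 did not call it. It passed in DESeq2 with the block, at 0.00992, and in edgeR without the libraries numbered 3, at 0.0186, fits that called 3.02% and 4% of all genes. Gm28783 had a log2 fold change of -0.60 ± 0.29 (SE) and an adjusted p of 0.641 in edgeR, at under 2 CPM in each library and with ranges that did not overlap. Pi15 and Gm16070, on the other side at 437630 and 511756 bp, had fitted values of 0.43 ± 0.39 and 0.64 ± 0.49 (SE).

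**Figure D4:**
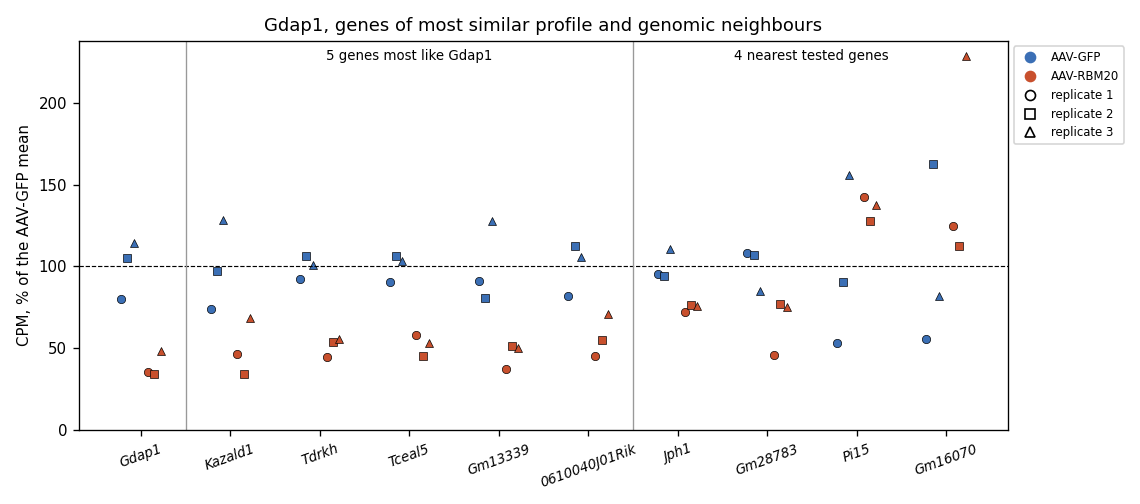
CPM in each library as a percentage of the AAV-GFP mean, for Gdap1, the 5 genes most like it over the 6 libraries and the 4 nearest tested genes on the chromosome. AAV-GFP is blue and AAV-RBM20 red, the marker shape gives the replicate number, and the AAV-RBM20 points of Gdap1, the 5 similar genes, Jph1 and Gm28783 all lie below the AAV-GFP points.

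The other genes of mitochondrial dynamics, and those of related pathways, were read from lists chosen with earlier results of these data known. In all these pathway lists together 0 genes passed an adjusted p of 0.05 in edgeR. In DESeq2 2 passed it, Myh8 and Runx1, both of the denervation list and neither a gene of mitochondrial dynamics. Of 5 tested genes of fusion, 4 had a value below 0, from -0.28 for Miga2, a mitoguardin of the outer membrane, to 0.05 for Msto1. Of 8 tested genes of fission, 5 were below 0, from -0.20 for Mtfr1l to 0.31 for Inf2, a formin that builds actin where mitochondria divide. Neither list held a gene with an unadjusted p under 0.05, and with the replicate block 1 did, Miga2, where the share over all genes was 18.8%. Gdap1l1, the paralog of Gdap1, was too low to test, with 18 counts in AAV-GFP and 9 in AAV-RBM20, or 0.141 and 0.0682 CPM on average.

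Proteases and scaffolds that act on OPA1 gave 6 of 9 values below 0, from -0.19 for Clpp, a matrix protease subunit, to 0.09 for Htra2, a protease of the intermembrane space. MICOS and the other genes of cristae gave 9 of 10 below 0, from -0.40 for Chchd6 to 0.003 for Mtx1, where 48.7% of all genes were below 0. Genes of mitophagy and outer membrane quality control gave 9 of 11 below 0, from -0.33 for Fundc1, a mitophagy receptor, to 0.14 for Usp30, a deubiquitinase that restrains mitophagy. Genes of mitochondrial motility split 3 and 3, from -0.15 for Rhot2 to 0.11 for Armcx3. No gene of these 4 lists had an unadjusted p under 0.05. With the replicate block 2 of the 10 cristae genes and 3 of the 11 mitophagy genes did, each lower with RBM20. The shares over all genes were 7.9% without the block and 18.8% with it, in either direction. The medians of the 4 lists ran from -0.15 for cristae to 0.007 for motility.

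Transcripts of 12 genes of mitochondrial biogenesis and of 12 nuclear genes for abundant mitochondrial proteins were listed as well. Both lists had 8 genes below 0 and 4 above, with a median log2 fold change of -0.10. The biogenesis values ran from -0.22 for Tfb2m, a mitochondrial transcription factor, to 0.23 for Ppargc1b, a coactivator of respiration genes. The content values ran from -0.25 for Slc25a4, the ADP/ATP carrier of muscle, to 0.14 for Sdha, a subunit of succinate dehydrogenase. Neither list held a gene with an unadjusted p under 0.05, where the share over all genes was 7.9%. With the replicate block 2 of each 12 did, with Ppargc1b higher and Tfb2m, Tomm20 and Hspd1 lower, where the share over all genes was 18.8%.

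**Figure D5:**
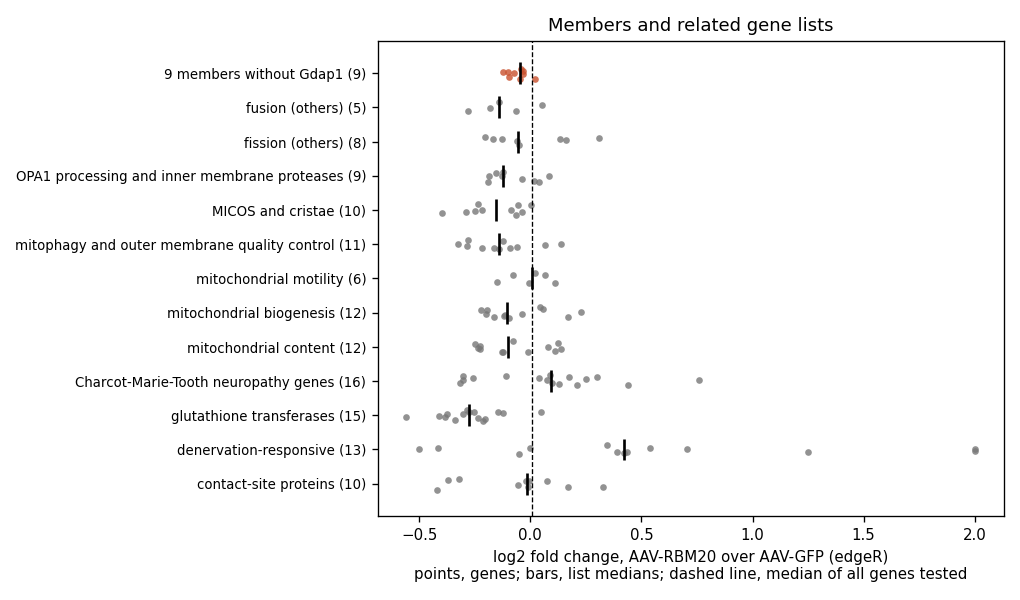
Log2 fold change of each tested gene in the 12 pathway lists, 1 point a gene, with a bar at the median of each list and a line at the median of all genes, 0.009. The denervation list spreads furthest, from -0.50 to 2.00, and the lists of mitochondrial dynamics stay between -0.40 and 0.31.

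GDAP1 is a neuropathy gene, so the other genes of Charcot-Marie-Tooth disease were listed, and 11 of the 16 tested were above 0. Among those above the level set for naming, values ran from -0.32 for Fgd4 to 0.44 for Sh3tc2. At an unadjusted p under 0.05 there was 1, Gars, a tRNA synthetase, at -0.30, and 4 with the replicate block. The shares over all genes were 7.9% without the block and 18.8% with it. Glutathione transferases, the family whose fold GDAP1 shares, gave 14 of 15 values below 0, where 48.7% of all genes were, and a median of -0.28. At an unadjusted p under 0.05 there were 0, or 5 with the replicate block, each lower with RBM20, beside the same shares of 7.9% and 18.8%. They ran from -0.56 for Gstm7 to 0.05 for Gsto1, and near-identical copies in the Gstm cluster may share reads. Genes listed for contact sites between membranes gave 7 of 10 below 0 with a median of -0.01, the lowest being Jph1 at -0.42. Of these 10, 3 had an unadjusted p under 0.05, with the block or without it, beside the same shares over all genes.

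Genes that muscle raises on denervation gave the widest spread. Of 13 tested, 9 were above 0 and 4 below, with a median of 0.42. Myh8, a myosin of newborn muscle, was at 2.00 with an adjusted p of 0.617 in edgeR. Its levels were low, at 1.87, 1.82 and 0.874 CPM in AAV-GFP and 10.4, 3.98 and 3.81 CPM in AAV-RBM20, highest in replicate 1. Trim63, a ubiquitin ligase of muscle atrophy, was at -0.50 with an adjusted p of 0.618 in edgeR. A total of 7 had an unadjusted p under 0.05, with 5 higher and 2 lower, where the share over all genes was 7.9%, and 7 had ranges that did not overlap, where it was 16.8%. The list was chosen with earlier results of these data known, so these counts are no test of it. Runx1, a transcription factor of denervated muscle, had an adjusted p of 0.257 in edgeR and 0.0271 with the replicate block, at a log2 fold change of 1.26, where the block called 0.145% of all genes. The 9 tested genes of fusion and fission had adjusted p-values from 0.586 to 0.985 under that block.

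In bulk muscle, fewer cells of a type and less RNA per cell cannot be told apart. GDAP1 is known best from nerve, and the 8 Schwann cell markers summed to 15.6 to 43.6 CPM in AAV-GFP and 20.4 to 35.7 CPM in AAV-RBM20, ranges that overlapped. The 8 neuronal markers summed to 2.45 to 3.76 and 2.61 to 5.15 CPM, with 3 high enough to test and Chat, the enzyme that makes acetylcholine, at 0 in all 6 libraries. Of those 3, Uchl1, a neuronal deubiquitinase, was at 1.30, 0.839 and 0.304 CPM in AAV-GFP and 2.53, 1.57 and 2.39 CPM in AAV-RBM20, ranges that did not overlap. Its log2 fold change of 1.42 ± 0.49 (SE) had an adjusted p of 0.618 in edgeR, and those of Stmn2 and Prph were -0.41 and -0.17. Muscle fibre markers summed to 83318 to 92483 CPM in AAV-GFP and 55122 to 81799 CPM in AAV-RBM20, ranges that did not overlap. The lowest sum was that of AAV-RBM20 replicate 3, and no share over all genes was taken for sums. Of the 8 genes taken singly, 1 had ranges that did not overlap, where the share over all genes was 16.8%. The log2 fold change was below 0 for 5 of 8 and 0 passed the threshold in edgeR. Myh4, the highest of the 8, averaged 36646 CPM in AAV-GFP and 24805 CPM in AAV-RBM20. The 3 above 0 were Myh1 (7438 and 9978 CPM), Myh2 (351 and 594 CPM) and Mb (2004 and 2421 CPM). The 8 macrophage markers were all above 0, summing to 25.2 to 68.9 and 46.0 to 104.4 CPM, with a median log2 fold change of 0.80. An unadjusted p under 0.05 was met by 2 in edgeR, where the share over all genes was 7.9%. With the replicate block all 8 met it, where the share over all genes was 18.8%. In edgeR 0 passed the adjusted threshold, and 1, Ptprc, passed it with the replicate block. Ptprc was at 4.03, 4.19 and 9.52 CPM in AAV-GFP and at 9.18, 7.81 and 31.1 CPM in AAV-RBM20, ranges that overlapped. Of the 8 macrophage markers, 1 had ranges that did not overlap, where the share over all genes was 16.8%. Fibro-adipogenic markers summed to 493 to 1049 and 853 to 1088 CPM, and 5 of 6 were above 0. Endothelial markers were at 165 to 386 and 259 to 362 CPM, satellite cell markers at 15.7 to 19.6 and 16.8 to 23.0 CPM, and adipocyte markers at 0.0984 to 6.67 and 0.293 to 3.75 CPM. The part of these cell types in the level of Gdap1 was not tested.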

How the data were processed

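Paired reads were mapped to mm10 with HISAT2 and counted per Ensembl gene with HTSeq by the authors, from ribosomal RNA-depleted stranded libraries. The deposited counts are raw whole numbers. A second deposited table holds a signal, the counts divided by 1 DESeq2 size factor per library, and it was used only for the share of Gdap1 and its ratio. Tool versions, annotation release and strand setting were not given in the sources used here. Symbols, positions and exon lengths came from GENCODE M21 (GRCm38), which holds 55141 of the 55401 identifiers.

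Groups were taken from the titles. Libraries of 1 group were compared as possible copies over genes with at least 50 counts, and chi-square per degree of freedom was 15.1 to 545. Counts were tested with edgeR 4.0.16 (filterByExpr, TMM, robust glmQLFit and glmQLFTest, no covariate) in R 4.3.3, with Benjamini-Hochberg adjustment over 17222 genes and a threshold of 0.05. The standard error was the log2 fold change divided by the square root of F, and CPM used TMM-scaled library sizes. Scripts were tested on simulated counts. Alternatives included DESeq2 1.42.0 and limma-voom (limma 3.58.1).

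Same-numbered libraries deviated together across genes, with correlations of 0.42, 0.20 and 0.48 for numbers 1, 2 and 3, each over 0.1, so the numbers in the titles were taken to pair the samples. Libraries of different number reached 0.22, between AAV-GFP replicate 2 and AAV-RBM20 replicate 1, which is above the 0.20 of number 2 with itself. The libraries numbered 3 stood apart in both groups, which can raise these correlations without any pairing. The check therefore does not establish the pairing, and each value by pair or with the replicate block rests on the numbers in the titles.

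The members, the lists, the markers and the tests were chosen with earlier results of these data known. Named genes were the 10 members, Rbm20 and Bmal1, the highest and lowest tested gene of each list (mean log2 CPM 0 or above), up to 3 called genes a list, the 5 genes most like Gdap1 (mean log2 CPM 1 or above), and the 2 nearest tested genes on each side. Gars, Runx1, Gdap1l1, Ptprc, Chat, Uchl1, Stmn2, Prph, Tomm20, Hspd1, Myh4, Myh1, Myh2 and Mb were named after their values were seen. The highest gene of 1 list is not reported here.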

Additional observations from a re-analysis of the deposited data

How the results depend on the processing

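Over 17 alternatives, the 9 tested genes of fusion and fission gave 153 values, of which 0 passed the threshold and 21 changed sign around 0, with log2 fold changes from -0.22 to 0.20 and a lowest adjusted p of 0.332. Gdap1 stayed between -1.50 and -1.24, and the median of the 9 between -0.09 and 0.02. With the replicate block, 25 of all genes and 1 pathway list gene (Runx1) passed and Rbm20 was at 1.53. The block changed no call among the 9 genes. With no filter on low counts 8 of all genes and 1 list gene (Runx1) passed, with Rbm20 at 1.53, and in DESeq2 75 and 2 (Myh8 and Runx1) passed, with Rbm20 at 1.53. In DESeq2 with the replicate block 520 and 7 passed, with Rbm20 at 1.52 and Mfn2 at -0.0015. Without the libraries numbered 3 of both groups, 690 and 7 passed, Rbm20 was at 1.65, and Oma1 was at 0.035, Dnm1l at 0.00084, Mff at 0.022, Fis1 at 0.11 and Mief2 at 0.10. With upper quartile factors, which moved the median of all genes to 0.05, Opa1 was at 0.00092, Dnm1l at 0.013 and Mief2 at 0.014. The fit that left out mitochondrial genes, Ttn and Rbm20 gives no value for Rbm20.

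Leaving out 1 library at a time called 0 of all genes each time and gave -0.089 to 0.20 for Mfn2, -0.12 to 0.013 for Opa1, -0.10 to 0.060 for Oma1, -0.10 to 0.065 for Dnm1l, -0.22 to 0.075 for Mff, -0.22 to 0.13 for Fis1 and -0.11 to 0.068 for Mief2. The sign changed without AAV-GFP replicate 3 for Mfn2, Dnm1l, Mff, Fis1 and Mief2, and without other single libraries for Mfn2, Opa1, Oma1 and Dnm1l. The Gdap1 share was 2.01% in AAV-GFP and 0.828% in AAV-RBM20 without division by length, and 1.81% and 0.751% with the longest coding transcript, a scale chosen after seeing the data. The cause of the other shifts was not tested. The lowest Gdap1 count was 420, and no group had more than 3 libraries.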
